A study of Mus musculus with 6 samples.

Results

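The genes described here build and decorate mucin-type O-glycans, the sugar chains that cover mucins. They were chosen as a named list of 46 mouse genes of the pathway, with earlier results of these data known. Of the 46 genes, 45 were measured, among 18193 genes on the array. Gcnt4, a core branching enzyme, had no probe set assigned to it alone and has no value. The 45 genes were read by 95 probe sets of 34945 with a single gene symbol. Where a gene had several probe sets, the one brightest on average over the 6 arrays gave its value.

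The study sorted GFP-high cells from the small intestine of Lgr5-EGFP-IRES-creERT2 mice and hybridised total RNA to 6 Affymetrix Mouse 430 2.0 arrays. All 6 mice carry the reporter cassette at Lgr5, a gene of the stem cells at the crypt base. The control group is 3 mice given the vehicle DMSO. The treated group is 3 mice given DBZ, an inhibitor of gamma-secretase, the protease complex that cuts Notch receptors and so frees their intracellular domain. Cells were collected at 24 h, and no source used here gives age or sex. The sample titles call the mice biological replicates and assign the groups, while a second label field speaks of DMSO on every array and differs from the titles for 3 of them. The comparison asks which genes change in these cells when Notch activation is blocked.

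O-glycan synthesis starts in the Golgi, where a family of GalNAc transferases links N-acetylgalactosamine to serine or threonine. A galactosyltransferase then forms core 1, branching enzymes add N-acetylglucosamine, and other transferases lengthen the chains and cap them with sialic acid, fucose or sulfate. In the intestine the best known acceptor is Muc2, the gel-forming mucin of goblet cells. Notch signalling in the crypt is known to hold back the secretory fate, to which goblet cells belong.

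Of the 45 measured genes 8 rose with DBZ and 0 fell (limma, Benjamini-Hochberg adjusted p under 0.05 over all genes). Among all 18193 genes 3.82% rose and 1.52% fell by the same rule, so the 17.8% of O-glycosylation genes that rose lies above the background share. The list was chosen with earlier results of these data known. Its lead over the background, here and below, therefore describes the list and cannot serve as a test. The genes that rose were Galnt7, Galnt10, Galnt12, B3gnt3, B3gnt5, St3gal1, Slc35a1 and Gne. At an unadjusted p under 0.05 the test gave 28 of the 45, 27 higher and 1 lower, against 26.3% of all genes in either direction and 15.1% of them higher. The difference was positive for 37 of 45 genes (82.2%, against 45.4% of all genes). The median difference was 0.51 on the log2(intensity + 16) scale, on which all differences below are given, and -0.02 over all genes.

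All 3 DBZ arrays lay above all 3 vehicle arrays for 25 of the 45 genes, or 55.6%, where 17.3% of all genes did. Only St6galnac1 lay apart in the other direction, against 15.8% of all genes. A difference of 1 or more was seen for 12 genes, or 26.7%, against 2.12% of all genes. Of these 12 genes 4 passed the test and 8 did not. In all, 10 genes had an adjusted p between 0.05 and 0.1 (limma). No O-glycosylation gene had a difference of -1 or less, which 164 genes of the array had. A vehicle mean below 50 was seen for 4 of the 45 genes, against 6636 of all 18193. The scale understates the change of such dim genes. Among genes of mean intensity of at least 50, 17 of 41 O-glycosylation genes rose, against 8.96% of the genes kept. The part of brightness in these shares was not tested further.

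**Figure D1:**
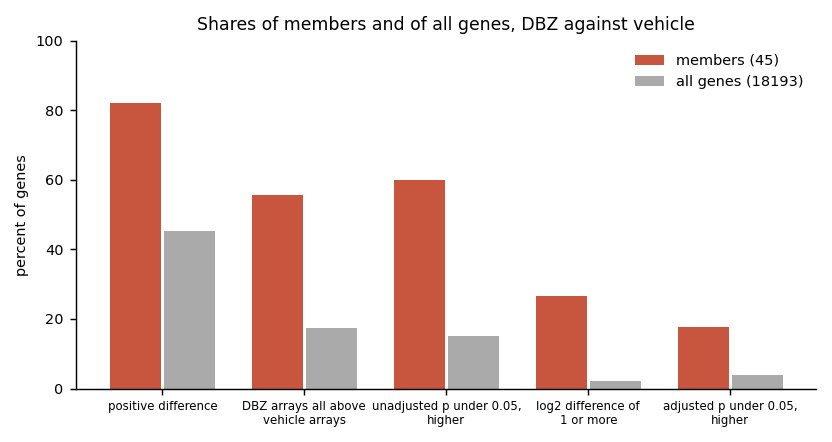
Share of genes, in percent, that meet each of 5 descriptions of the DBZ against vehicle comparison, for the 45 O-glycosylation genes (red) and all 18193 genes (grey). The red bar is higher in every pair, for example 55.6% against 17.3% for groups that do not overlap with DBZ higher. The 45 genes were chosen with earlier results of these data known, and a smaller share of them is dim.

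**Figure D2:**
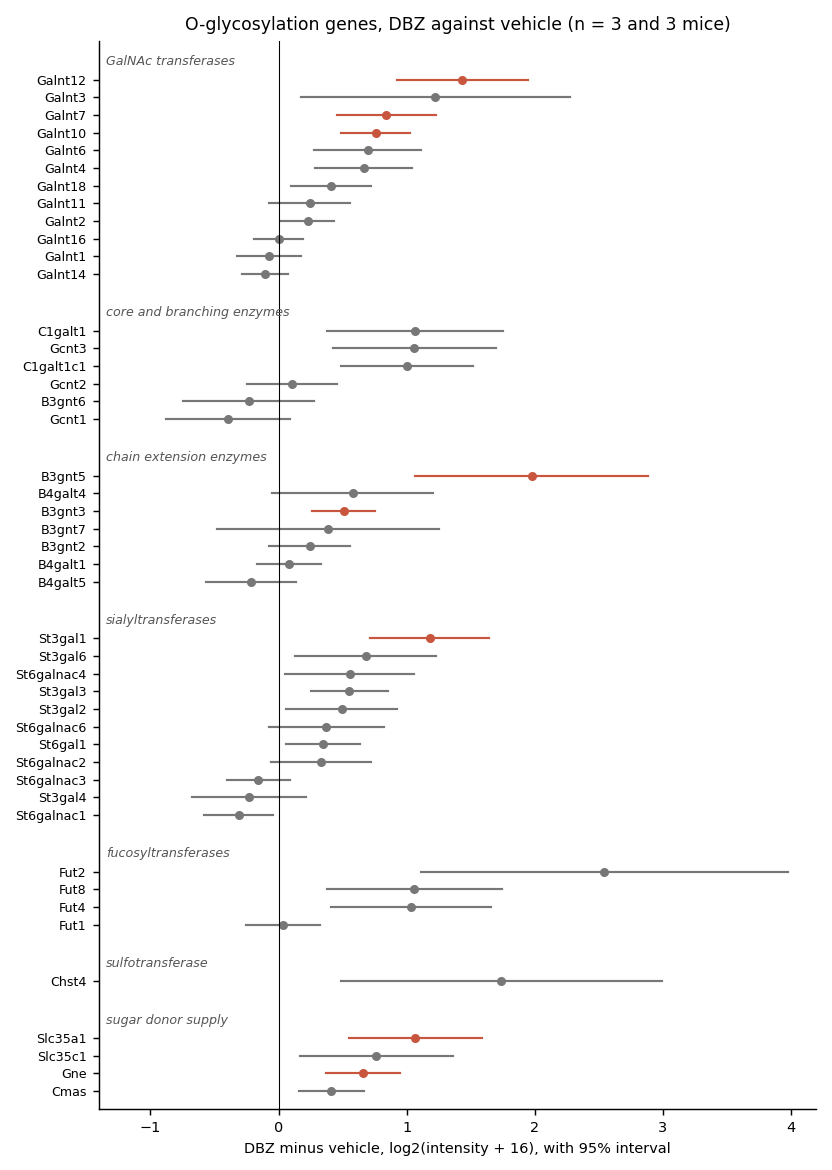
Difference between DBZ and vehicle for each of the 45 genes on the log2(intensity + 16) scale, with the 95% interval from limma, arranged by role. Red marks the 8 genes past the test, and many of the other intervals also lie to the right of 0.

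The calls depended on single arrays. With any of the 3 vehicle arrays left out, 0 of the 45 genes passed the limma test, and at an unadjusted p under 0.05 there were 20, 25 and 24 without vehicle replicates 1, 2 and 3. The count was also 0 without DBZ replicate 2 (22 at the unadjusted threshold) and was 4 without DBZ replicate 3. It was 23 without DBZ replicate 1. The counts over all genes moved with it, from 972 with all arrays to 49, 19 and 38 without vehicle replicates 1, 2 and 3, to 2032 without DBZ replicate 1, and to 217 and 352 without DBZ replicates 2 and 3. Each of the 8 genes kept a positive difference in each of these fits.

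Of the 12 GalNAc transferases, the enzymes that start the chains, 3 rose, against 3.82% of all genes. Groups lay apart with DBZ higher for 8 of the 12, against 17.3% of all genes. Galnt12, a member of the family found in the digestive tract, stood at 901, 1115 and 1048 intensity units in vehicle replicates 1, 2 and 3 and at 2000.1, 3216 and 3339 in DBZ replicates 1, 2 and 3. Every DBZ array was well above every vehicle array, and DBZ replicate 1 was the lowest of the treated arrays. It rose by 1.44 ± 0.21 (SE; limma, Benjamini-Hochberg adjusted p = 0.0282), a fold of 2.71 on this scale.

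Galnt7, which prefers peptides that already carry a GalNAc, read 2015, 2119 and 2322 in vehicle arrays and 3207, 3669.5 and 4893 in DBZ arrays. The groups did not overlap, and DBZ replicate 3 was the highest. It rose by 0.84 ± 0.16 (SE; limma, adjusted p = 0.0445). Its 2 other probe sets showed differences of 1.38 ± 0.23 and 1.06 ± 0.15 in the fit over probe sets (limma, adjusted p = 0.0444 and 0.033), in which the probe set used for the gene had an adjusted p of 0.0526.

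Galnt10, also an enzyme of partly glycosylated peptides, read 344, 374 and 374 in vehicle arrays and 529.9, 669 and 691 in DBZ arrays. The vehicle arrays were close together and all below the DBZ arrays. It rose by 0.76 ± 0.11 (SE; limma, adjusted p = 0.0282).

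The other 9 GalNAc transferases did not pass the test. For 5 of them the groups lay apart with DBZ higher. Galnt3 had a difference of 1.22 (95% interval 0.17 to 2.27; limma, adjusted p = 0.143), with means of 664 ± 25.6 (vehicle) and 1786 ± 1029 (DBZ; SD, n = 3). The wide spread of Galnt3 came with 784 in DBZ replicate 1 and 2839 in DBZ replicate 3. Galnt4 and Galnt6 had differences of 0.66 ± 0.16 and 0.70 ± 0.17 (SE; limma, adjusted p = 0.0634 and 0.0713). Galnt18 and Galnt2 differed by 0.41 ± 0.13 and 0.23 ± 0.08 (SE). Galnt1, Galnt14 and Galnt16 had overlapping groups, with intervals of -0.32 to 0.17, -0.28 to 0.07 and -0.19 to 0.19, and Galnt11 overlapped as well at 0.24 ± 0.13 (SE). Galnt14 and Galnt18 were dim, at 20.0 and 35.0 in vehicle arrays.

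**Figure D3:**
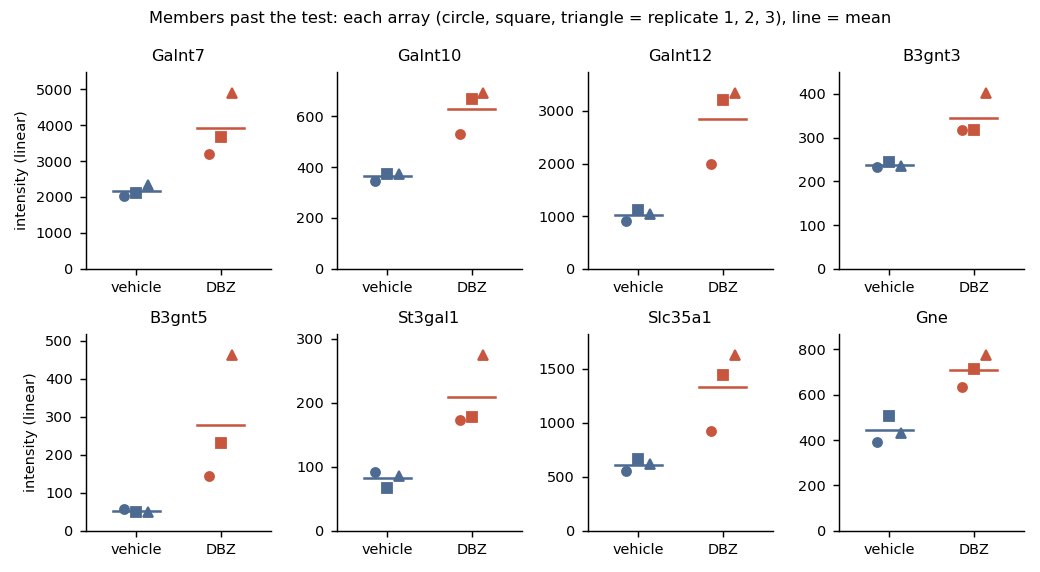
Linear intensity of the 8 genes past the test in each array, 1 panel per gene with its own axis from 0. Blue points are vehicle and red points DBZ mice, symbols give the replicate number and lines the mean of 3. No DBZ point falls at or below a vehicle point in any panel.

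None of the 6 measured core and branching enzymes passed the test (limma, 0 of 6, with 3 at an unadjusted p under 0.05). Still, 3 of them had differences of at least 1 and groups apart with DBZ higher, against 17.3% of all genes. C1galt1c1, the chaperone Cosmc that the core 1 enzyme needs to fold, read 1922, 2159 and 2231 in vehicle arrays and 3114, 4280.4 and 5649 in DBZ arrays. The lowest DBZ array was above the highest vehicle array. The difference was 1.00 ± 0.21 (SE), and its adjusted p of 0.0515 (limma) lay just outside the threshold.

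C1galt1, the galactosyltransferase that makes core 1, averaged 543 ± 36.2 with vehicle and 1224 ± 526 with DBZ (SD, n = 3) and a difference of 1.07 ± 0.28 (SE; limma, adjusted p = 0.0792). Gcnt3, which makes core 2 and core 4 branches in mucin-secreting tissue, had means of 1644 ± 257 and 3556 ± 1169 (SD, n = 3) and a difference of 1.06 ± 0.26 (SE; limma, adjusted p = 0.0707). The remaining members of the group did not share this. Gcnt1, the other core 2 enzyme, had a difference of -0.39 (95% interval -0.88 to 0.09), B3gnt6, which makes core 3, of -0.23 (-0.74 to 0.28), and Gcnt2, a branching enzyme of I antigen, of 0.10 (-0.25 to 0.45), all with overlapping groups.

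Of 7 chain extension enzymes 2 rose, against 3.82% of all genes. B3gnt5, best known for starting lacto-series glycolipids, read 57.1, 48.4 and 49.9 in vehicle arrays and 143, 232 and 462 in DBZ arrays. The vehicle arrays sat near the array median of about 45 units, and the DBZ arrays were spread but all higher. It rose by 1.98 ± 0.38 (SE; limma, adjusted p = 0.0447), a fold of 3.93 on this scale. B3gnt5 was dim in vehicle arrays, so its value depends on the pseudocount: the difference was 2.25 with a pseudocount of 1 and 1.46 with 64, where the adjusted p was 0.0835.

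B3gnt3, which extends core 1, read 232, 244 and 235 in vehicle arrays and 319, 317 and 402 in DBZ arrays. The rise of 0.51 ± 0.10 (SE; limma, adjusted p = 0.0478) was small beside that of B3gnt5, but the vehicle arrays differed by little. The call was lost after quantile normalization and with centring on array medians (limma, adjusted p = 0.0591 and 0.0525). The galactosyltransferase B4galt4 had groups apart at 0.58 ± 0.26 (SE; limma, adjusted p = 0.219). B3gnt7 averaged 50.4 ± 9.34 with vehicle and 78.6 ± 52.5 with DBZ (SD, n = 3), the latter set by 139 in DBZ replicate 3 alone. B3gnt2, B4galt1 and B4galt5 overlapped between groups at 0.24, 0.08 and -0.22.

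Of 11 sialyltransferases 1 rose, against 3.82% of all genes, and 8 had a positive and 3 a negative difference. St3gal1, which caps core 1 with sialic acid, read 92.2, 67.2 and 86.0 in vehicle arrays and 173, 178 and 275 in DBZ arrays. All DBZ arrays were higher, with replicate 3 above the other two. It rose by 1.18 ± 0.19 (SE; limma, adjusted p = 0.0329).

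St3gal3 and St6galnac4 also had groups apart with DBZ higher, at 0.55 ± 0.12 and 0.55 ± 0.21 (SE; limma, adjusted p = 0.0563 and 0.161). St3gal6, St3gal2, St6galnac6, St6gal1 and St6galnac2 had positive differences of 0.68, 0.49, 0.37, 0.35 and 0.33 with overlapping groups. St6galnac1, which makes the sialyl-Tn antigen, was the one gene of all 45 with every DBZ array below every vehicle array. It averaged 104 ± 13.5 with vehicle and 81.0 ± 9.89 with DBZ (SD, n = 3), a difference of -0.31 (95% interval -0.58 to -0.04; limma, adjusted p = 0.145). St3gal4 and St6galnac3 had differences of -0.23 ± 0.18 and -0.16 ± 0.10 (SE) with overlapping groups. St3gal4 was the brightest of the 11, at 9255 ± 1749 with vehicle and 7848 ± 1265 with DBZ (SD, n = 3). The summed intensity of the 11 genes was 8906 to 12099 on the vehicle and 8940.5 to 10939 on the DBZ arrays, so the groups overlapped.

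None of the 4 fucosyltransferases passed the test (limma, 0 of 4, with 3 at an unadjusted p under 0.05), yet the family had the largest median difference of the roles with more than 1 gene, at 1.05. Fut2, which makes the H antigen of intestinal epithelium, read 90.6, 74.1 and 109 in vehicle arrays and 296, 450.1 and 1625 in DBZ arrays. The groups were far apart, and DBZ replicate 3 was much higher than the other DBZ arrays. The difference of 2.54 (95% interval 1.11 to 3.98), the largest of the 45 genes, had an adjusted p of 0.0626 (limma). Without DBZ replicate 3 it was 1.84 with an adjusted p of 0.0319, and without DBZ replicate 1 it was 3.04 with an adjusted p of 0.0274.

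Fut4, which fucosylates N-acetylglucosamine to form Lewis X structures, had means of 482 ± 1.93 and 1053 ± 378 (SD, n = 3) and a difference of 1.04 ± 0.26 (SE; limma, adjusted p = 0.0711). Fut8, which fucosylates the core of N-glycans and so belongs to another glycan class, differed by 1.06 ± 0.28 (SE; limma, adjusted p = 0.0798). Fut1, a second H antigen enzyme, was dim and overlapped at 0.04 (95% interval -0.25 to 0.33).

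The sulfotransferase Chst4, which sulfates N-acetylglucosamine, read 198, 239.6 and 180.3 in vehicle arrays and 309, 829.9 and 1437 in DBZ arrays. DBZ replicate 1 stood close to the vehicle arrays and the other DBZ arrays far above. The difference was 1.74 (95% interval 0.49 to 2.99; limma, adjusted p = 0.101). It was 2.33 with an adjusted p of 0.0105 without DBZ replicate 1.

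All 4 genes of sugar donor supply had groups apart with DBZ higher, and 2 of them rose, against 17.3% and 3.82% of all genes. Slc35a1, the Golgi transporter of CMP-sialic acid, read 549, 669 and 618 in vehicle arrays and 923, 1446 and 1629 in DBZ arrays. It rose by 1.07 ± 0.21 (SE; limma, adjusted p = 0.0478), and every DBZ array was higher, DBZ replicate 1 the least. With centring on array medians its adjusted p was 0.0524 (limma). Gne, the enzyme that starts sialic acid synthesis, read 391, 506 and 429.8 in vehicle arrays and 633, 715 and 775 in DBZ arrays.

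The groups of Gne lay apart, and it rose by 0.66 ± 0.12 (SE; limma, adjusted p = 0.0388). A second probe set of Gne passed the test as well, at 0.83 ± 0.09 (SE; limma, adjusted p = 0.0257). Cmas, which activates sialic acid, and Slc35c1, the Golgi transporter of GDP-fucose, had differences of 0.41 ± 0.11 and 0.76 ± 0.25 (SE; limma, adjusted p = 0.0741 and 0.121). All of these genes but Slc35c1 serve sialic acid.

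Probe sets of the same gene mostly pointed the same way. In the fit over probe sets 7 of the 95 passed the threshold, all of them higher and in 5 genes, against 2.87% of all probe sets. Of 50 further probe sets in the 30 genes with more than 1, 36 had the sign of the one used and 14 the opposite sign, 0 of these past the threshold. Among the 24 with a mean intensity of 50 or more, 21 had the same sign. The 3 exceptions belonged to Galnt1, Gcnt2 and St3gal6, at 0.25, -0.22 and -0.22. When the probe sets of a gene were averaged, 5 of the 8 genes still passed the test, and B3gnt5, Galnt10 and Slc35a1 did not (limma, adjusted p = 0.0548, 0.0591 and 0.0538). The difference was then 1.01 for B3gnt5 and 0.62 for St3gal1, each of which has a second probe set that was dim in both groups, at 13.6 and 19.7 in vehicle arrays.

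The treated mice differed from one another in the same order for 30 of the 45 genes, with DBZ replicate 1 lowest, replicate 2 between and replicate 3 highest. DBZ replicate 2 was the lowest in 7 genes, B3gnt3 among them, and DBZ replicate 3 in 7 others. Of the 25 genes with groups apart and DBZ higher, DBZ replicate 1 was the lowest treated array in 24 and DBZ replicate 3 the highest in 25. Among the 3152 genes of the array with groups apart in that direction, these shares were 56% and 65.9%. The median difference from the vehicle mean over the 45 genes was 0.24 in DBZ replicate 1, 0.44 in DBZ replicate 2 and 0.77 in DBZ replicate 3. Over all genes it was close to 0 in each array, at most 0.03 in size. The median SD on the log2 scale was 0.16 in vehicle and 0.28 in DBZ arrays for the 45 genes, against 0.10 in both groups for all genes. The genes share their arrays, so these counts describe 3 mice and not 45 independent observations.

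**Figure D4:**
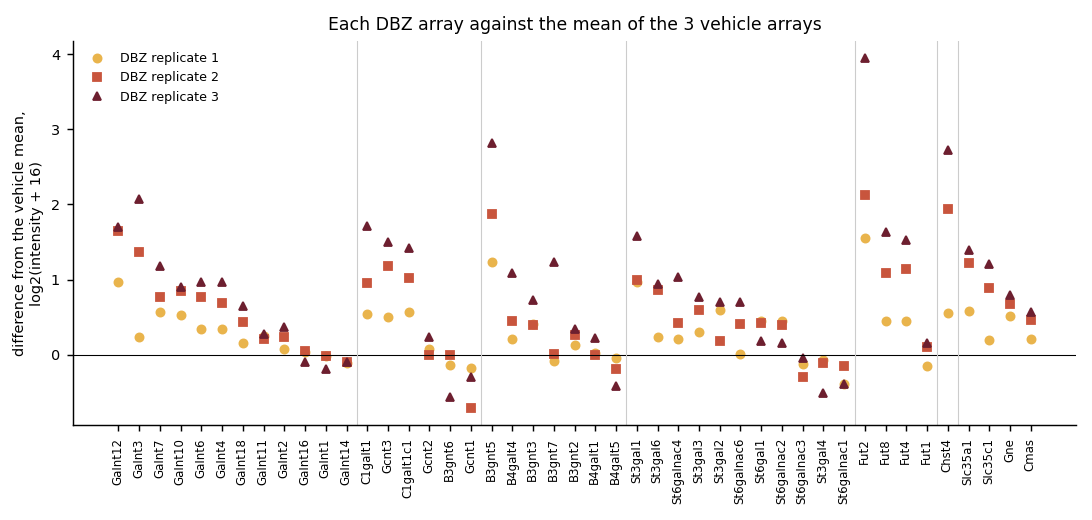
Difference of each DBZ array from the mean of the 3 vehicle arrays, log2(intensity + 16), for the 45 genes. Vertical lines part the roles, from left to right GalNAc transferases, core and branching, chain extension, sialyltransferases, fucosyltransferases, sulfotransferase and sugar donor supply. DBZ replicate 1 (circles) lies lowest and DBZ replicate 3 (triangles) highest in most genes with a positive difference.

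Other genes of the same enzyme families had a median near the background, and many of them were dim. Of 39 listed, 34 were measured, 1 rose and 1 fell, and the median difference was -0.02, equal to that of all genes. Over all genes 3.82% rose and 1.52% fell. Differences ran from -0.69 to 1.43. Groups lay apart with DBZ higher for 5 of the 34 genes and lower for 5, against 17.3% and 15.8% of all genes. Their mean log2 level was 6.55 to 6.59 on the vehicle arrays, and 7.62 or more for each O-glycosylation role. The lists thus differ in brightness, and its part in the flat median was not tested. B3gnt9, a further member of the N-acetylglucosaminyltransferase family, rose by 0.97 ± 0.20 from a dim 39.3 ± 6.43 to 94.3 ± 27.2 (SD, n = 3; limma, adjusted p = 0.0487). Gal3st1, the sulfotransferase that makes sulfatide, fell from 335 ± 48.6 to 206 ± 27.4 (SD, n = 3; limma, adjusted p = 0.0478).

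Further genes of nucleotide sugar supply were higher more often than not. Of 27 listed, 25 were measured, 17 had a positive difference, 2 rose, 0 fell, and the median difference was 0.31. Groups lay apart with DBZ higher for 13 of them. Over all genes 3.82% rose and 17.3% had groups apart in that direction. Gfpt1, the entry enzyme of the hexosamine pathway, rose by 0.52 ± 0.07 (SE; limma, adjusted p = 0.027), from 5353 ± 152 to 7690 ± 553 (SD, n = 3). Gmds, the first enzyme of GDP-fucose synthesis from GDP-mannose, rose by 0.53 ± 0.11 (SE; limma, adjusted p = 0.0478).

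The proteins that carry these sugars or lie beside them in mucus were listed as well. Of 15 listed mucins and mucus proteins 13 were measured, 1 rose and 0 fell, with a median difference of 0.31. Over all genes 3.82% rose. The groups lay apart with DBZ higher for 5 of the 13 and lower for 1, against 17.3% and 15.8% of all genes. The gene that rose was Fcgbp, a mucus protein bound to Muc2, from 11991 ± 251 to 18341 ± 1759 (SD, n = 3; limma, adjusted p = 0.027). Muc2 read 15797, 18527 and 17071 in vehicle and 18493, 21808 and 23439.7 in DBZ arrays. The difference of Muc2 was 0.31 ± 0.11 (SE; limma, adjusted p = 0.146), and the groups overlapped at the highest vehicle and the lowest DBZ array. The brightest probe set of each array read 27330 to 29871, and whether values near that end understate a change was not tested. Of 5 measured genes of sialic acid removal and O-acetylation 1 rose, the dim sialidase Neu2, by 0.38 ± 0.07 (SE; limma, adjusted p = 0.0401).

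Markers of several cell types moved together with these genes, and their part in the result was not tested. Each array measured the sorted cells of 1 mouse together, so more cells of a type and more RNA per cell cannot be told apart. Of 16 goblet markers 10 rose and 0 fell, against 3.82% and 1.52% of all genes. Intensities of the goblet markers summed to 101290 to 109160 on the vehicle and 133450 to 170950 on the DBZ arrays. Their mean log2 level was lowest in DBZ replicate 1 and highest in DBZ replicate 3 among the treated arrays, at 11.8, 12.2 and 12.4. The mean log2 level of each O-glycosylation role had the same order, and so had the Paneth markers at 11.8, 12.8 and 13.0. The summed intensity of the sialyltransferases did not, at 10933, 10939 and 8940.5 in DBZ replicates 1, 2 and 3. The brightest goblet markers were near the top of the range in both groups, Zg16 at 26292 and 26668 and Tff3 at 23015 and 28838 in vehicle and DBZ arrays. Fcgbp, Clca1, Tff3 and Zg16 are in the list of mucus proteins too.

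Of 14 fibroblast and smooth muscle markers 9 rose, against 3.82% of all genes. Their intensities summed to 21777 to 31668 (vehicle) and 47192 to 54969 (DBZ). That sum was lowest in DBZ replicate 1 of the treated arrays, but their mean log2 level was nearly the same in DBZ replicates 1 and 2, at 11.01 in both, and 11.25 in DBZ replicate 3. Acta2, an actin of smooth muscle, rose from 7143 ± 794 to 11273 ± 821 and Col3a1, a collagen, from 2683 ± 564 to 5735 ± 977 (SD, n = 3; limma, adjusted p = 0.0308 and 0.0337). Of 6 adipocyte markers 2 rose, with sums of 1628 to 3343 and 5335 to 12347. Of 11 leukocyte markers 2 rose, with sums of 6160.4 to 7932 and 6229 to 14236. The risen leukocyte genes were S100a8 and S100a9, named after their values were seen. Without them the 9 other leukocyte markers, 6 of them with a negative difference, summed to 6126 to 7891 with vehicle and 5662 to 8958 with DBZ, and the groups overlapped. The mean log2 levels of the adipocyte and leukocyte lists were lowest in DBZ replicate 2 and highest in DBZ replicate 3 among the treated arrays. What these orders of 3 mice owe to any cell type was not tested.

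Among the other lists 2 of 8 endothelial, 2 of 12 enteroendocrine, 2 of 7 Paneth and 1 of 8 tuft cell markers rose, against 3.82% of all genes. The enteroendocrine median difference was 1.35, close to the 1.38 of the goblet markers. Of the 12 enteroendocrine markers 11 had a positive difference and 8 had groups apart with DBZ higher, against 17.3% of all genes. Their mean log2 level was 7.99, 8.85 and 8.67 in DBZ replicates 1, 2 and 3. The median was 0.65 for tuft and 0.40 for endothelial markers. Of the 7 Paneth markers 0 fell, but 4 had a negative difference and the median was -0.30. Every DBZ array lay below every vehicle array for 3 Paneth markers and above for 2. Of 9 enterocyte markers 0 passed the limma test (3 at an unadjusted p under 0.05, all lower). Of 9 stem cell markers 1 rose and 2 fell. Lgr5, the gene by whose reporter the cells were sorted, read 245 ± 35.9 with vehicle and 229.9 ± 18.0 with DBZ (SD, n = 3; limma, adjusted p = 0.724). Olfm4, a stem cell gene known as a Notch target, fell from 4346 ± 781 to 28.1 ± 8.81 (SD, n = 3; limma, adjusted p = 0.000416). No marker was listed at 0, since the lowest intensity of any probe set was 6.87. The actin control's 3' to 5' signal ratio, which reflects RNA quality, was 2.22, 1.61 and 1.69 in vehicle replicates 1, 2 and 3. With DBZ it was 1.51 to 1.57, so the groups lay narrowly apart, and vehicle replicate 1 was well above the other arrays. The same ratio of the Gapdh control, 1.07 to 1.42 with vehicle and 1.05 to 1.09 with DBZ, overlapped between the groups and was again highest in vehicle replicate 1. The part of RNA quality in the result was not tested either.

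**Figure D5:**
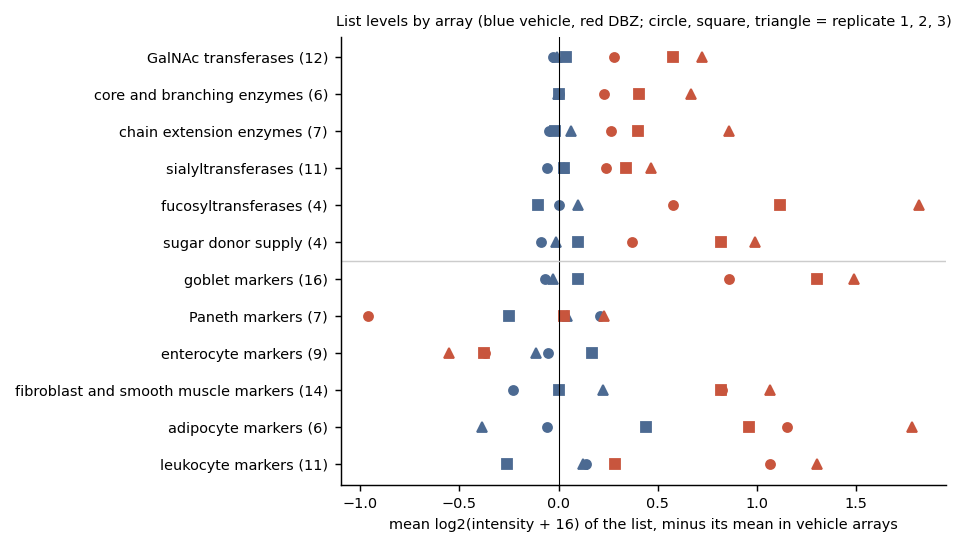
Mean log2(intensity + 16) of each role with more than 1 gene (top) and of some marker lists (bottom) in each array. Values are relative to the mean of the 3 vehicle arrays, with the number of genes in brackets. The enteroendocrine, tuft, stem cell and endothelial lists are not drawn. Vehicle arrays are blue, DBZ arrays red, and symbols give the replicate number. The roles, the goblet markers and the Paneth markers have DBZ replicate 1 lowest and replicate 3 highest among the red points. The adipocyte and leukocyte markers have DBZ replicate 2 lowest and also replicate 3 highest.

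Promoter sequences were compared because 8 genes of one pathway rose together. RefSeq promoters of build GRCm38.p6, taken as the 250 bases before each start, were at hand for 32 of the 45 genes (48 promoters), among them 6 of the 8 that rose (7 promoters). Both strands were searched for 4 motifs. The E-box CAGCTG, its own reverse complement, and the E-box CAGATG, which reads CATCTG on the other strand, are bound by basic helix-loop-helix factors such as Atoh1. TGGGAA, which reads TTCCCA on the other strand, is the core of the site of the Notch effector Rbpj. CACGCG, which reads CGCGTG on the other strand, is a site of Hes repressors. A promoter can hold several motifs. Promoters of 4 genes that rose are shown 5′ to 3′ with E-boxes in capitals, all 3 that hold an E-box and 1 that does not.
B3gnt5 promoter, chr16:19759984-19760233, plus strand: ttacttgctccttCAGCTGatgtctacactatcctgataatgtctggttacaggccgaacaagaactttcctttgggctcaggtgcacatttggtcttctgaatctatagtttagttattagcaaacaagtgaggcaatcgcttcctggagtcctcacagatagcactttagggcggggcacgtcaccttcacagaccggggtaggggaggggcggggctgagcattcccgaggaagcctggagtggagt
Galnt10 promoter, chr11:57645192-57645441, plus strand: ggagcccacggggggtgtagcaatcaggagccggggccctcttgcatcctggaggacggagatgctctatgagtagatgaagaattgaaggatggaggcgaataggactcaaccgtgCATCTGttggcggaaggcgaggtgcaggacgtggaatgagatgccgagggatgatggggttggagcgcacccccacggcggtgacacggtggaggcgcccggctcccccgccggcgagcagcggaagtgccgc
Gne promoter, chr4:44084178-44084427, minus strand: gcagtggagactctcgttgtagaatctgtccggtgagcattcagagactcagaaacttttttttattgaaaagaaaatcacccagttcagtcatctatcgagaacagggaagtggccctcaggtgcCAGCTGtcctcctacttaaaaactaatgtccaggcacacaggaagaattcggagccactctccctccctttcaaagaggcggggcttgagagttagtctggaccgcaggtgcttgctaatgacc
Slc35a1 promoter, chr4:34687439-34687688, minus strand: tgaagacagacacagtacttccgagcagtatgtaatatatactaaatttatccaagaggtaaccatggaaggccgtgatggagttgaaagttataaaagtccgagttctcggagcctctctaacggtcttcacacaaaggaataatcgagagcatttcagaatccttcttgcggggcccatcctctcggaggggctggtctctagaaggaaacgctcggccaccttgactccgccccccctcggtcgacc

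The marked E-box lies 237 to 232 bases before the start in B3gnt5, 133 to 128 in Galnt10 and 124 to 119 in Gne. Slc35a1 has none of the 4 motifs in this window. Gne has a second promoter in the table, at chr4:44072718-44072967, that holds none of the 4 motifs either. The promoters of B3gnt3 and Galnt7, not shown, also hold none of them. Either E-box was found in 3 of the 7 promoters of genes that rose, in 18.8% of the 48 promoters of O-glycosylation genes and in 25.5% of all 32851 promoters. The core of the Rbpj site was in 0 of 7, 18.8% and 21.6%, and the Hes site in 0 of 7, 8.33% and 7.62%. CAGCTG alone was in 10.4% of the pathway's promoters and 13% of all, CAGATG in 10.4% and 14.4%. The pathway's promoters had a median GC content of 59.4%, against 52.4% for all. A match is a description of the letters in this window.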

How the data were processed

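Total RNA of sorted cells was extracted with a column kit, amplified with a 3' IVT kit and labelled with biotin, per the labels' protocols. The authors deposited 1 linear intensity per probe set and array. Neither software nor background correction, normalization or detection calls are named in the sources used here. Array medians were 44.9 to 46.3, so values were not normalized again. Precision is limited by having 3 arrays per group.

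From 45101 probe sets, 64 controls and those with several gene symbols (932) or none (9160) in the platform annotation were left out. DBZ was compared with vehicle on log2(intensity + 16) with R 4.3.3 and limma 3.58.1 (lmFit, eBayes, two-sided, prior degrees of freedom 2.21), with Benjamini-Hochberg adjustment over 18193 genes, or over 34945 probe sets, and a threshold of 0.05. The log2 scale with this pseudocount understates the change of dim genes. SE is the moderated standard error. With 3 mice per group, exact permutation of one gene's values cannot reach a p below 0.1. Tested on simulated arrays of 18193 genes, this comparison recovered 92% of genes shifted by 1 on the log2 scale and 100% of genes shifted by 2. Of the genes it called, 4% had not been shifted. The simulated noise was independent between genes and equally large in both groups. The 45 genes had a median SD of 0.16 in vehicle and 0.28 in DBZ arrays and shared an order of arrays. These shares therefore do not describe the 45 genes, of which 4 of 12 with a difference of 1 or more passed.

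The members of the pathway and the other lists were chosen with earlier results of these data known. Any of the 45 genes could be named. Values per array are given for those past the threshold and, where a role had none, for the gene with the smallest p. The naming rule also took genes of the pathway lists past the threshold, Muc2, and up to 3 of the brightest genes per marker list. Of the values beyond this rule, Lgr5 and single arrays of Galnt3 and B3gnt7 were chosen after values were seen, as were further probe sets. The alternatives are listed with their effect in the closing section. The label's dose of DBZ has an unclear unit and is not used here. Figures were drawn with matplotlib 3.10.9 in Python 3.11.15.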

Additional observations from a re-analysis of the deposited data

How the results depend on the processing

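The count of O-glycosylation genes that passed the test was 8 as reported and 6 to 8 with quantile normalization, centring on array medians, the narrower choices of probe set by suffix and the replicate block. Of all genes tested 3.14% to 3.92% rose in these fits, of which the strictest by suffix kept 38 of the 45 genes. It was 14 with a pseudocount of 1 and 2 with 64, where 5.27% and 1.7% of all genes rose. Among genes of mean intensity of at least 50 or of at least 100 it was 17 of 41 and 17 of 36, against 8.96% and 9.53% of the genes kept. It was 13 with an intensity trend in the variance, 15 with a trend and robust prior and 22 with array weights, against 4.91%, 5.25% and 9.12% of all genes. With the mean of a gene's probe sets it was 5 (2.97% of all genes), and at an adjusted p under 0.1 it was 18 (9.03%). It was 0 to 23 with each array left out, where 0.0879% to 7.17% of all genes rose. With ordinary t statistics it was 0, with 19 at an unadjusted p under 0.05. All O-glycosylation genes that passed in any of these fits were higher with DBZ. Over all genes the count of 972 became 440 with a pseudocount of 64, 1485 with a mean of at least 50, 2690 with array weights, 0 with ordinary t statistics (3731 at an unadjusted p under 0.05), 2575 at an adjusted p under 0.1, and 19 to 2032 with each array left out. The 7 member probe sets became 18 and 1 with pseudocounts of 1 and 64, 26 and 25 with means of at least 50 and 100, 19 with a trend, 21 with a robust prior, 32 with array weights, 0 with ordinary t statistics, 25 at an adjusted p under 0.1, and 0 to 36 with each array left out. The cause of these moves was not tested, except that the filters leave fewer genes to adjust over (11642 and 9586) and leaving out an array leaves fewer mice.

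Deviations from the group mean in same-numbered arrays correlated at -0.00863, 0.246 and 0.2. Differently numbered arrays were not compared in this way, so these values cannot tell whether the numbers pair the mice. With the replicate block 7 genes and 11 probe sets passed the test (limma). B3gnt5 and B3gnt3 were lost (adjusted p = 0.0559 and 0.0656) and C1galt1c1 was gained (0.0438).

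Of 880 differences of single genes under an alternative, 740 kept direction and side of the threshold, 60 lost and 67 gained the call, and 13 changed sign, in 6 genes that did not pass the test. Galnt1 became 0.012 with array weights and 0.085 with the mean of probe sets, and ranged from -0.13 to 0.018 with each array left out. Galnt16 became -0.058 after quantile normalization and ranged from -0.030 to 0.058. Gcnt2 and B3gnt6 became -0.099 and 0.056 with array weights. B3gnt7 ranged from -0.037 to 0.62 and Fut1 from -0.062 to 0.13 with each array left out. Dim genes such as Galnt14, Galnt18 and Fut1 lie near the lower end of the signal, where small changes cannot be read.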
